A study of Homo sapiens with 18 samples.

Results

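The genes described here are 10 regulators and direct effectors of the integrated stress response: ATF4, CEBPB, CEBPG, DDIT3 (which encodes CHOP), ATF3, TRIB3, PPP1R15A, PPP1R15B, CHAC1 and ASNS. They were taken by name, as a list of known members of the pathway, from the 23250 gene symbols measured in each library, and all 10 were found by their exact symbol and passed the filter on low values. The list was chosen with earlier results of these data known. Counts of these genes beside all tested genes are therefore descriptions and not independent support. RNA-seq was done on 18 libraries from SUDHL6, Farage and SUDHL4, which are 3 established lines of human diffuse large B cell lymphoma. In each line, 3 libraries came from cells treated for 12 h with 10 µM of 79-6.1085, a BCL6 inhibitor known here by its code name, and 3 from cells treated for 12 h with DMSO, its vehicle. BCL6 is a transcriptional repressor of germinal centre B cells. Each group is 1 cell line at a single dose and time. The labels do not say whether replicates were separate cultures, and p-values therefore reflect only the scatter among these libraries, which may be technical. DMSO replicate 3 of SUDHL4 stood apart from the other DMSO libraries of its line, toward the treated libraries, for these genes and across the table. The SUDHL4 DMSO levels and fold changes include it unless stated, and many but not all of the results that rest on it are also given without it.

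In the integrated stress response, kinases that sense amino acid shortage, unfolded protein in the endoplasmic reticulum, double-stranded RNA or mitochondrial and haem stress phosphorylate the initiation factor eIF2α. General protein synthesis falls, while upstream reading frames let the ATF4 messenger be translated more. ATF4 is a basic leucine zipper (bZIP) factor that pairs with C/EBP proteins and turns on genes of amino acid supply, the factors CHOP and ATF3, and the phosphatase subunit that ends the response. The libraries measure transcripts and not the ATF4 protein, the phosphorylation of eIF2α or translation.

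ATF4 and its C/EBP partners bind a composite element with the core TGATGNAA, where N is any base. The 250 bases before each RefSeq transcription start (GRCh38.p14) were searched for this core and for the cyclic AMP response element TGACGTCA on both strands; the motifs do not overlap in the stretches shown. All 10 genes had at least 1 start in the table. The core stood before at least 1 start of PPP1R15B, ATF3, ASNS, CHAC1 and CEBPG, which is 5 of 10 genes, and before 3.89% of all 27305 genes with a start and 2.33% of the 8891 of them that were tested here. TGACGTCA stood before PPP1R15A, 2.03% of all genes with a start and 3.42% of those tested. No start of ATF4, DDIT3, TRIB3, CEBPB or PPP1R15A held the core in this window. The 10 genes were listed as known members of this pathway, so their share is a description and not independent support. A gene with more starts has more windows to hold a match, and a match is a description of the letters, not of a bound site. The stretches that hold a match are given because they show how the same core recurs before genes of different roles; capitals mark the match, and each runs 5′ to 3′ on the strand of its gene.
CHAC1 (chr15:40953251-40953280, plus strand): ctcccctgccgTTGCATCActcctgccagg
ASNS (chr7:97872458-97872487, minus strand): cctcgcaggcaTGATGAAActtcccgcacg
CEBPG (chr19:33373896-33374112, plus strand): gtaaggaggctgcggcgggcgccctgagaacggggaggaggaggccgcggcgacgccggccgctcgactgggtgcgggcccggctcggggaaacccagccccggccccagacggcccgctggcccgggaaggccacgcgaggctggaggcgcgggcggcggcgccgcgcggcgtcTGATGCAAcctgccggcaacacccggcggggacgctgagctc
PPP1R15B (chr1:204411818-204412067, minus strand): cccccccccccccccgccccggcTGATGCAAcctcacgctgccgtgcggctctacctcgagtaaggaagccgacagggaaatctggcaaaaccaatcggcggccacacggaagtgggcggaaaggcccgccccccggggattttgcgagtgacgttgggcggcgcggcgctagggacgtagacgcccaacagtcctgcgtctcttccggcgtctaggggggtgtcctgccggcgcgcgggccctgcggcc
ATF3 (chr1:212565157-212565333, plus strand): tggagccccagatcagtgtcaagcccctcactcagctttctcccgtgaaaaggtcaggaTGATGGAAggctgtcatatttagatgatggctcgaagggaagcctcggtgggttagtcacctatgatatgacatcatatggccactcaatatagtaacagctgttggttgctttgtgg
PPP1R15A (chr19:48872171-48872391, plus strand): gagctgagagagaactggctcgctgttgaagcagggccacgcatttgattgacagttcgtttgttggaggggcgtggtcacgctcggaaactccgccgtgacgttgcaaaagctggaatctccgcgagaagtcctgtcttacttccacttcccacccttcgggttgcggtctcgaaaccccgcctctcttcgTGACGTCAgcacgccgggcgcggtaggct
The core reads TGATGCAA before CEBPG and PPP1R15B, TGATGGAA before ATF3 and TGATGAAA before ASNS. Before CHAC1 it lies on the other strand, as TTGCATCA. The far end of the core lay 42 bases before the start of CEBPG, 68 before that of ASNS, 191 before that of ATF3, 209 before that of CHAC1 and 227 before that of PPP1R15B. CEBPG, ASNS and ATF3 each had 2 starts, and the core stood before 1 of them. All 250 bases before CHAC1 and 134 of those before ASNS lay in annotated exons. The matches of these 2 genes lay in exons too, so only 30 bases around them are shown. The far end of TGACGTCA lay 58 bases before the start of PPP1R15A.

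All 10 genes were higher with the inhibitor than with DMSO in SUDHL6, in Farage and in SUDHL4. The largest changes were in ATF3, DDIT3 and PPP1R15A, with log2 fold changes of 4.30, 3.40 and 3.40 in the mean of the 3 lines. The smallest were in ATF4 and CEBPG, at 1.16 and 1.19. In every line, the lowest of the 3 inhibitor values of each gene lay above the highest of the 3 DMSO values. Such separation with the inhibitor above was seen for 24.4% of the 12769 tested genes in SUDHL6, 30.6% in Farage and 28.9% in SUDHL4. Values are CPM (reads of a gene scaled to the size of its library), and log2 fold changes are of CPM + 1, which makes the change of weakly expressed genes smaller. A gene was called at an adjusted p below 0.05 in limma, with Benjamini-Hochberg adjustment over all tested genes. The fit took 1 spread per gene over all 6 groups. The SE of a gene is therefore the same in each line and is not the scatter of that line alone. By that rule, 26.8% of tested genes were higher in SUDHL6, 25.4% in Farage, 24.3% in SUDHL4 and 30.1% in the mean of the lines. Changes that also reached a log2 fold change of 1 covered 9 of the 10 genes in SUDHL6, where ATF4 missed it, against 7.12% of all tested genes. In Farage, where CEBPG missed it, they covered 9 of 10 genes against 7.38%. All 10 genes passed in SUDHL4, with or without DMSO replicate 3, against 7.49%, and in the mean of the lines, against 6.08%. The median log2 fold change of the 10 genes was 2.96 in SUDHL6, 2.15 in Farage and 2.50 in SUDHL4, beside -0.13, -0.22 and -0.21 over all tested genes. In bulk libraries, a larger share of responding cells and more RNA per cell cannot be told apart.

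**Figure D1:**
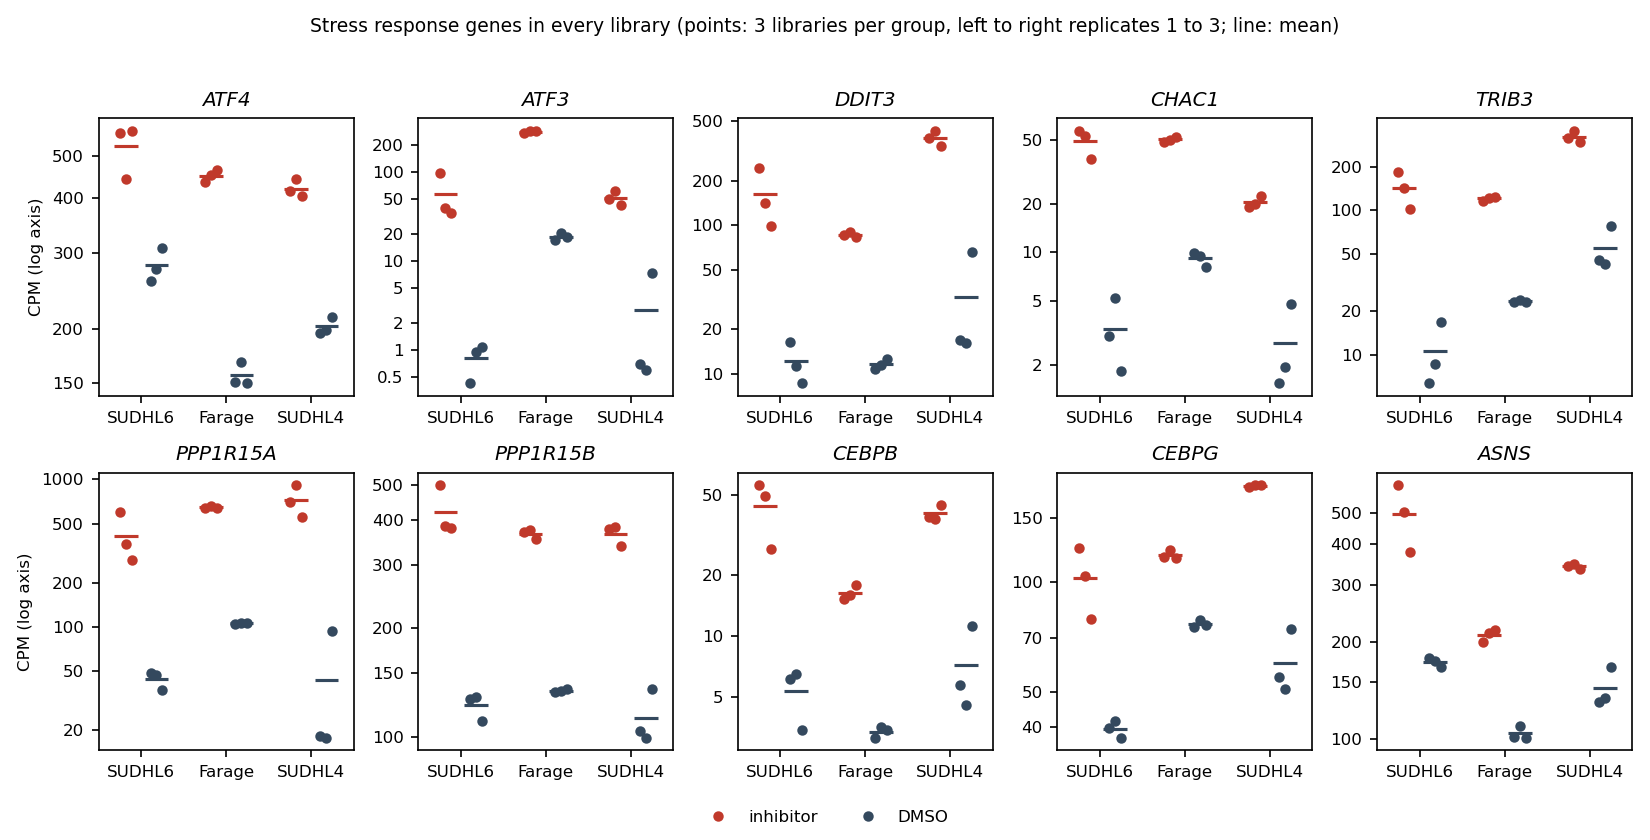
CPM of each gene on a log axis, by line, with inhibitor-treated libraries (red) left of DMSO libraries (dark blue); points are the 3 libraries of a group and lines their mean. The inhibitor points lie above the DMSO points of the same line in each panel, and DMSO replicate 3 of SUDHL4 lies above the other DMSO libraries of that line, most visibly for ATF3, where it is at 7.24 CPM.

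The scaling bears on the size of these changes. The CPM used as deposited put the median of all genes at -0.24 in the mean of the lines. Median-of-ratios scaling brought that median to -0.05 and raised the median of the 10 genes to 2.83, from 2.63 as deposited, with all 10 still higher. Among all calls in the mean of the lines, the share that was higher was 35.8% as deposited and 47.1% with that scaling. In single lines it was 39.4% and 48.8% in SUDHL6, 35.3% and 47.4% in Farage, and 34.5% and 48.7% in SUDHL4.

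The libraries held 8278759 to 31580567 reads in the divisor of the CPM, with the shallowest in replicates 3 of SUDHL6; 3 reads correspond to at most 0.362 CPM. The 6 B cell markers were expressed in every library, and their summed level was lower with the inhibitor. It was 2080 to 3140 CPM with the inhibitor and 5230 to 5510 with DMSO in SUDHL6, 2010 to 2130 and 3510 to 3670 in Farage, and 4200 to 4320 and 6160 to 6610 in SUDHL4. Summed T cell, myeloid, erythroid and epithelial markers did not pass 3.62 CPM in any group, with the T cell genes CD3D, CD3E, CD3G, CD2 and CD5 all at 0 in inhibitor-treated SUDHL6. The 3 fibroblast markers summed to 17.4 to 20.5 CPM in inhibitor-treated and 59.0 to 66.6 CPM in DMSO-treated SUDHL4 libraries, and to at most 7.27 CPM in the other lines. In SUDHL4 the sum was nearly all DCN, at a mean of 18.7 CPM with the inhibitor and 62.3 CPM with DMSO. The collagen genes were near 0 there, with COL1A1 at 0.0994 and 0.0106 CPM and COL1A2 at no more than 0.121 CPM in any library. The part of these markers in the changes of the stress response genes was not tested.

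ATF4, the factor at the centre of the response, had the smallest fold change of the 10 genes in the mean of the lines. In SUDHL6, ATF4 was at 566, 443 and 573 CPM with the inhibitor, against 258, 276 and 308 CPM with DMSO. In Farage, ATF4 was at 436, 453 and 464 CPM with the inhibitor and at 151, 168 and 149.9 CPM with DMSO. In SUDHL4, ATF4 was at 417, 442 and 404 CPM with the inhibitor and at 196, 199 and 213 CPM with DMSO. The groups were apart in all 3 lines, and the inhibitor-treated lines overlapped their neighbours in level while the DMSO-treated lines did not. The ratio of mean CPM was 1.88 in SUDHL6, 2.89 in Farage and 2.08 in SUDHL4. The log2 fold changes were 0.90, 1.52 and 1.05 in these lines, each ± 0.09 (SE), with adjusted p of 3.31e-07, 7.81e-10 and 4.38e-08. Processed pseudogenes of ATF4, which are not among the measured symbols, could take or give reads of this gene, since the handling of multiply mapped reads is not given in the sources used here.

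CEBPB encodes a C/EBP factor that dimerises with ATF4 and CHOP. In SUDHL6, CEBPB was at 55.6, 48.9 and 26.9 CPM with the inhibitor and at 6.13, 6.53 and 3.43 CPM with DMSO. In Farage, CEBPB was at 15.2, 15.9 and 17.9 CPM with the inhibitor and at 3.15, 3.55 and 3.44 CPM with DMSO. In SUDHL4, CEBPB was at 38.6, 37.8 and 44.6 CPM with the inhibitor and at 5.77, 4.59 and 11.2 CPM with DMSO. The treated and DMSO libraries were apart in each line; replicate 3 was the lowest library of both SUDHL6 groups, and the highest of both SUDHL4 groups. Its log2 fold changes were 2.79, 1.98 and 2.42, each ± 0.28 (SE), with adjusted p of 2.08e-07, 7.19e-06 and 7.56e-07. CEBPB overlaps the exons of an antisense gene. The strand setting of the counting is not given in the sources used here, so reads in the shared stretch cannot be told apart. The extent of that overlap was not measured.

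CEBPG, a C/EBP protein without a classical activation domain that forms heterodimers with ATF4, had smaller fold changes than CEBPB, and they differed between lines. In SUDHL6, CEBPG was at 124, 104 and 79.2 CPM with the inhibitor, against 39.8, 41.6 and 37.4 CPM with DMSO. In Farage, CEBPG was at 117, 122 and 117 CPM with the inhibitor, against 75.3, 78.5 and 76.2 CPM with DMSO. In SUDHL4, CEBPG was at 182, 184 and 184 CPM with the inhibitor, against 54.8, 51.0 and 74.2 CPM with DMSO. The inhibitor-treated SUDHL4 libraries were the highest of all and nearly equal to each other, and the DMSO level was highest in Farage. The ratio of mean CPM was 2.58 in SUDHL6, 1.55 in Farage and 3.06 in SUDHL4. On the log2 scale the changes were 1.33, 0.62 and 1.61, each ± 0.13 (SE), with adjusted p of 2.9e-07, 0.000582 and 2.24e-08.

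DDIT3 encodes CHOP, a C/EBP family member known for driving cell death and secretory recovery genes under prolonged stress. In SUDHL6, DDIT3 was at 245, 142 and 99.7 CPM with the inhibitor, against 16.5, 11.4 and 8.67 CPM with DMSO. In Farage, DDIT3 was at 85.9, 90.4 and 83.5 CPM with the inhibitor, against 10.9, 11.5 and 12.6 CPM with DMSO. In SUDHL4, DDIT3 was at 389.6, 433 and 344 CPM with the inhibitor, against 16.9, 16.2 and 66.3 CPM with DMSO. The 3 inhibitor-treated lines did not overlap each other, with SUDHL4 highest and Farage lowest. Under DMSO, the SUDHL6 libraries overlapped those of both Farage and SUDHL4. The third SUDHL4 DMSO library stood well above the other two of its group. These gave log2 fold changes of 3.58, 2.80 and 3.82, each ± 0.40 (SE), with adjusted p of 8.35e-07, 1.03e-05 and 2.9e-07. Without DMSO replicate 3 of SUDHL4, the change in that line was 4.47, with an adjusted p of 2.18e-09. Exons of DDIT3 overlap those of MARS and MBD6 on the opposite strand, so reads in the shared stretches cannot be told apart here. The extent of the overlap was not measured. MARS, the methionyl-tRNA synthetase gene, had a log2 fold change of 0.87 ± 0.05 (SE) in the mean of the lines, against 3.40 ± 0.23 for DDIT3.

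ATF3, a stress-induced bZIP factor that ATF4 and CHOP are known to turn on, had the largest change of the 10 genes in the mean of the lines and ranked 3 of 12769 tested genes. In SUDHL6, ATF3 was at 97.6, 38.7 and 34.7 CPM with the inhibitor and at 0.424, 0.944 and 1.07 CPM with DMSO. In Farage, ATF3 was at 271, 289 and 287 CPM with the inhibitor and at 17.0, 20.7 and 18.4 CPM with DMSO. In SUDHL4, ATF3 was at 49.9, 60.8 and 42.6 CPM with the inhibitor and at 0.693, 0.602 and 7.24 CPM with DMSO. Treated Farage was far above the other treated lines, and its DMSO libraries were also above those of the other lines. The SUDHL6 DMSO values rest on 11, 25 and 10 reads. The ratio of mean CPM was 70.1 in SUDHL6, 15.1 in Farage and 18 in SUDHL4, or 78.9 in SUDHL4 without DMSO replicate 3. In log2 terms the changes were 4.86, 3.85 and 4.20, each ± 0.47 (SE), with adjusted p of 1.74e-07, 1.8e-06 and 6.4e-07. Without DMSO replicate 3, the SUDHL4 change was 4.97, with an adjusted p of 2.6e-09.

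**Figure D2:**
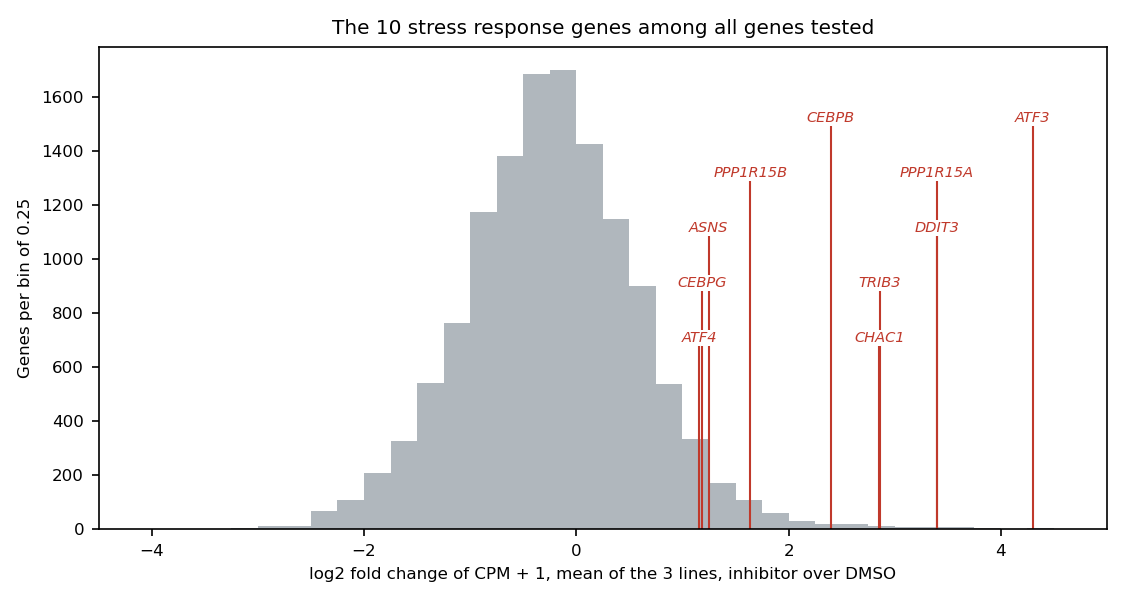
Histogram of the log2 fold change of all 12769 tested genes in the mean of the 3 lines, inhibitor over DMSO (x axis), as genes per bin (y axis), with the 10 stress response genes marked by red lines. The bulk of genes lies about -0.24, and the marked genes run between 1.16 for ATF4 and 4.30 for ATF3.

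PPP1R15A and PPP1R15B encode the 2 regulatory subunits that direct protein phosphatase 1 to eIF2α and so reverse its phosphorylation; the first, also called GADD34, is known as inducible and the second as constitutive. In SUDHL6, PPP1R15A was at 597, 365 and 283 CPM with the inhibitor, against 48.4, 47.2 and 37.5 CPM with DMSO. In Farage, PPP1R15A was at 639.9, 663 and 637 CPM with the inhibitor, against 105, 106 and 106 CPM with DMSO. In SUDHL4, PPP1R15A was at 707, 914 and 561 CPM with the inhibitor, against 18.2, 17.7 and 94.0 CPM with DMSO. The treated SUDHL4 libraries overlapped those of both Farage and SUDHL6, and treated Farage lay above treated SUDHL6. DMSO replicate 3 of SUDHL4 was again far above the others of its group. The log2 fold changes were 3.13, 2.60 and 4.46, each ± 0.44 (SE), with adjusted p of 8.8e-06, 5.39e-05 and 1.34e-07. In SUDHL4 the change was 5.24 without DMSO replicate 3, with an adjusted p of 1.07e-10.

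PPP1R15B changed less but in all 3 lines. It ranged over 381 to 501 CPM with the inhibitor and 111 to 129 CPM with DMSO in SUDHL6. The ranges were 354 to 376 and 133 to 136 CPM in Farage, and 338 to 384 and 99.3 to 136 CPM in SUDHL4. Treated SUDHL4 overlapped both other treated lines, while treated SUDHL6 lay above treated Farage. Under DMSO, SUDHL4 overlapped both other lines and Farage lay above SUDHL6. Its log2 fold changes were 1.77, 1.44 and 1.70, each ± 0.12 (SE), with adjusted p of 3.2e-09, 1.48e-08 and 2.23e-09.

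TRIB3 encodes a pseudokinase that CHOP and ATF4 turn on and that is known to bind ATF4 and dampen its activity. In SUDHL6, TRIB3 was at 183, 142 and 102 CPM with the inhibitor, against 6.36, 8.65 and 16.8 CPM with DMSO. In Farage, TRIB3 was at 116, 121 and 124 CPM with the inhibitor, against 23.2, 23.8 and 23.2 CPM with DMSO. In SUDHL4, TRIB3 was at 315, 354 and 295 CPM with the inhibitor, against 45.3, 42.3 and 77.3 CPM with DMSO. SUDHL4 was the highest line both with the inhibitor and with DMSO, and the DMSO groups of the 3 lines did not overlap. On the log2 scale the changes were 3.69, 2.32 and 2.57, each ± 0.27 (SE), with adjusted p of 9.85e-09, 9.85e-07 and 2.77e-07.

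CHAC1 encodes a gamma-glutamylcyclotransferase that breaks down glutathione. In SUDHL6, CHAC1 was at 57.3, 53.2 and 38.3 CPM with the inhibitor, against 3.01, 5.21 and 1.82 CPM with DMSO. In Farage, CHAC1 was at 48.8, 50.5 and 52.6 CPM with the inhibitor, against 9.95, 9.58 and 8.14 CPM with DMSO. In SUDHL4, CHAC1 was at 19.3, 20.2 and 22.4 CPM with the inhibitor, against 1.53, 1.93 and 4.76 CPM with DMSO. Treated SUDHL6 and Farage overlapped and lay above treated SUDHL4, while the DMSO level of Farage was above those of the other lines. These gave log2 fold changes of 3.60, 2.34 and 2.62, each ± 0.28 (SE), with adjusted p of 1.56e-08, 1.13e-06 and 2.86e-07.

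ASNS, which encodes asparagine synthetase, is a classical ATF4 target of amino acid shortage. It ranged over 379.5 to 609 CPM with the inhibitor and 168 to 178 CPM with DMSO in SUDHL6. The ranges were 199.6 to 217 and 101 to 110.2 CPM in Farage, and 336 to 348 and 130.4 to 168 CPM in SUDHL4. None of the 6 groups overlapped its neighbour in level, though SUDHL6 and SUDHL4 under DMSO nearly met, at 167.7 and 167.6 CPM. SUDHL6 had the highest mean among the treated and among the DMSO groups. The ratio of mean CPM was 2.87 in SUDHL6, 2.01 in Farage and 2.37 in SUDHL4. In log2 terms the changes were 1.49, 1.003 and 1.25, each ± 0.13 (SE), with adjusted p of 4.47e-08, 2.53e-06 and 1.95e-07. Pseudogenes of ASNS are not among the measured symbols and could share its reads.

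**Figure D3:**
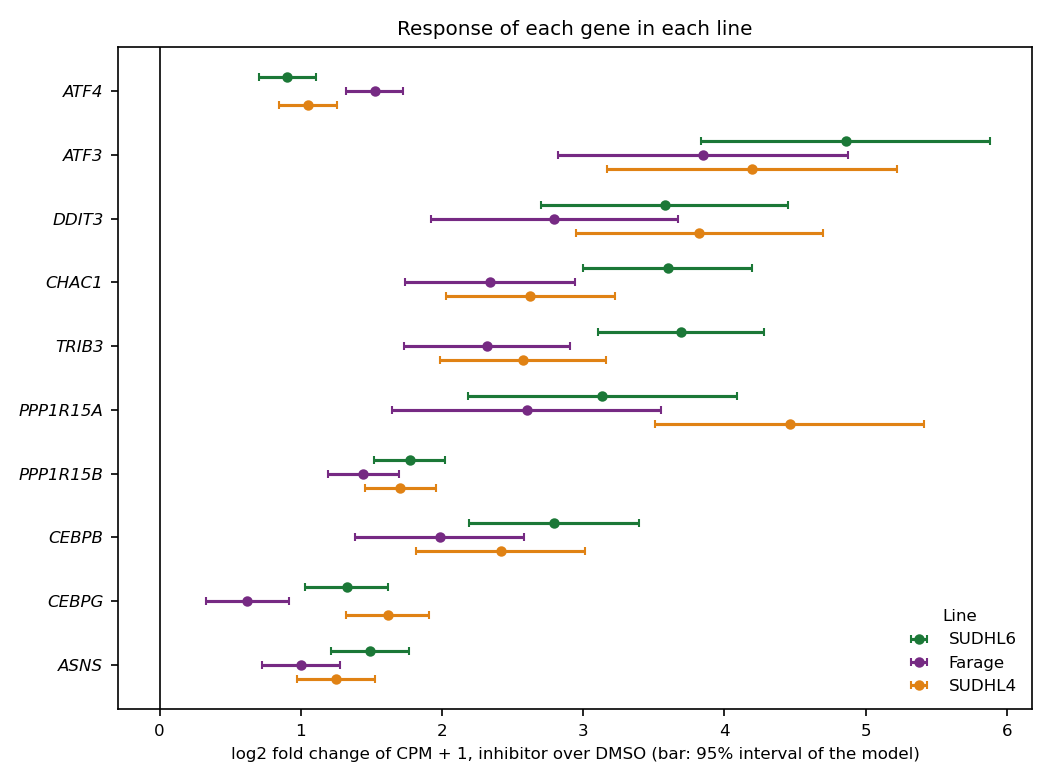
Log2 fold change of CPM + 1, inhibitor over DMSO, of each gene in SUDHL6 (green), Farage (purple) and SUDHL4 (orange). Bars are 95% intervals from the limma SE with 12 residual degrees of freedom. The intervals lie above 0 for the 10 genes in each line, with the lowest estimate at 0.62 for CEBPG in Farage.

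The spread between replicates differed by line and touched nearly all of the 10 genes at once. DMSO replicate 3 of SUDHL4 lay toward the treated libraries. It was 1.08 to 11.2 times the mean of DMSO replicates 1 and 2, with a median of 1.97 over the 10 genes. Its excess made up 7.01% of the treated-minus-DMSO difference in CPM for ATF4, the least, and 17.1% for CEBPB, the most, with a median of 13.2%. Every one of the 10 genes was higher in this library than in the mean of the other two, as were 40.8% of all tested genes. The library lay toward the treated side over the whole table. Of 481 genes with a log2 fold change of at least 1 in both SUDHL6 and Farage, which were chosen without SUDHL4 libraries, 94.0% were higher in it than in the mean of the other two. Of 1317 genes at -1 or below in both of these lines, 93.6% were lower in it. What sets this library apart was not tested, and the SUDHL4 DMSO means and fold changes that include it carry that doubt. In SUDHL6, inhibitor replicate 1 was the highest treated library for 9 of the 10 genes, ATF4 being the exception. The share of all tested genes that were highest in this library was not counted, so this cannot be read as particular to the 10 genes. In Farage, the replicates of ATF3 varied by 3.48% of the mean with the inhibitor and 10.0% with DMSO (coefficient of variation), beside 61.8% and 42.2% in SUDHL6. In SUDHL4 under DMSO the figure was 134%. These unequal spreads enter the shared SE and p-values of each line.

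**Figure D4:**
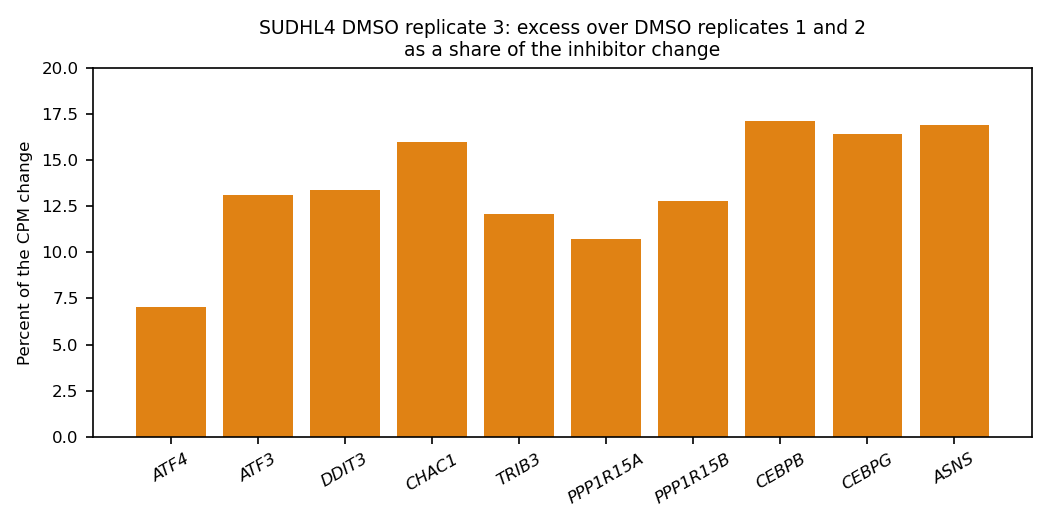
For each gene, the CPM of DMSO replicate 3 of SUDHL4 above the mean of DMSO replicates 1 and 2, as a percent of the difference between the treated mean and that mean (bars). The bars run between 7.01% for ATF4 and 17.1% for CEBPB.

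Within groups, the genes moved together to different degrees, which is given as a description over 18 libraries that share lines, depth and the 2 libraries above. After the group means were taken off, Pearson's r was 0.96 between DDIT3 and PPP1R15A, 0.94 between ATF3 and PPP1R15A, and 0.86 between ATF3 and DDIT3. All r here include DMSO replicate 3 of SUDHL4, and r without it was not computed. That library was 5.24, 4.01 and 11.2 times the mean of DMSO replicates 1 and 2 for PPP1R15A, DDIT3 and ATF3. For ATF4 it was 1.08 times that mean. ATF4 stood apart, with r of 0.09 with DDIT3, 0.06 with ASNS and -0.21 with CEBPB; its highest was 0.46, with ATF3. Over all 18 libraries, with the group differences kept, the genes most like ATF4 among 9558 ranked were SPTY2D1 (r of 0.98), ATP6V1C1 (0.98) and KLHL21 (0.98). Those most like DDIT3 were RNF111 (0.99), ERN1 (0.99) and RB1CC1 (0.98). Nearest to ATF3 were SLC38A2 (0.99), VPS26A (0.99) and GABPB1 (0.98).

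The response differed between lines for some of the genes, and the direction was not shared by all of them. A moderated F-test over the responses of the 3 lines called 5 of the 10 genes, ATF4, CHAC1, TRIB3, PPP1R15A and CEBPG, beside 55.9% of all tested genes, so their share was close to that of genes at large. The adjusted p of ATF3, DDIT3, PPP1R15B, CEBPB and ASNS were 0.395, 0.257, 0.187, 0.201 and 0.0797. The 3 pairs of lines share libraries, so their values are not independent.

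Farage was set against SUDHL6 first. Of the 10 genes, 1 had the larger log2 response in Farage and 4 the smaller, beside 15.1% and 21.7% of all tested genes. ATF4 had the larger response, by 0.62 ± 0.13 (SE; adjusted p 0.00159). The responses of TRIB3, CHAC1 and CEBPG were lower by -1.37 ± 0.38, -1.26 ± 0.39 and -0.70 ± 0.19 (adjusted p 0.00963, 0.0184 and 0.0084). The ASNS response was lower by -0.49 ± 0.18 (adjusted p 0.0439), a call lost in 19 of the 26 alternatives tried, with edgeR (0.0934) and DESeq2 (0.094) among them. CEBPB differed by -0.81 (adjusted p 0.117), and by the same amount with an adjusted p of 0.00946 when the replicate number was a block within each line. For DDIT3 the difference was -0.78, with a 95% interval between -2.02 and 0.46, and for ATF3 -1.01, between -2.46 and 0.44. The ATF3 value depends on the pseudocount, since its SUDHL6 DMSO level is near 1 CPM. It was -1.74 with a pseudocount of 0.25 (adjusted p 0.12) and -2.33 with edgeR (adjusted p 0.0837).

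Between SUDHL4 and SUDHL6, only the lower TRIB3 response was called, at -1.12 ± 0.38 (adjusted p 0.0315), 1 of 10 genes beside 22.5% of all tested genes; no gene of the 10 had a higher one, beside 12.5%. The TRIB3 call was lost in 10 of the 26 alternatives, with median-of-ratios scaling (adjusted p 0.0721) and no filter (0.0531) among them. With the replicate number as a block it was also lost (adjusted p 0.0559), and CHAC1 was called at -0.97 (adjusted p 0.0134, against 0.0629 without the block). Without DMSO replicate 3 of SUDHL4, TRIB3 was at -0.85 (adjusted p 0.0847), while PPP1R15A was called at 2.10 (0.000144) and CEBPG at 0.45 (0.0492). With all libraries, PPP1R15A differed by 1.33 with an adjusted p of 0.109.

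SUDHL4 against Farage gave a larger response of 2 genes, beside 17.7% of all tested genes, and a smaller one of 1, beside 19.7%. PPP1R15A responded more in SUDHL4, by 1.86 ± 0.62 (adjusted p 0.0261), and CEBPG by 0.99 ± 0.19 (0.000661). ATF4 responded less, by -0.47 ± 0.13 (0.00963). The PPP1R15A call was lost with edgeR (0.0863) and DESeq2 (0.125), without SUDHL4 DMSO replicate 1 (0.0781) or 2 (0.0781), and without inhibitor replicate 2 of SUDHL4 (0.0643). The ATF4 call was lost with edgeR (0.0692). Without DMSO replicate 3 of SUDHL4, 5 genes had the larger response in SUDHL4, adding ATF3 at 1.12 (0.0488), DDIT3 at 1.67 (0.00242) and PPP1R15B at 0.40 (0.0394). Over all 12769 tested genes, 2260 had the larger response with all libraries, and 1910 to 2648 with 1 library left out at a time.

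The starting levels under DMSO also differed by line. In Farage against SUDHL6, 5 genes were higher, beside 33.8% of all tested genes, and 2 were lower, beside 37.5%. ATF3 differed most, at 18.7 ± 1.87 CPM in Farage and 0.813 ± 0.343 CPM in SUDHL6 (SD, n = 3 each), a log2 difference of 3.46 ± 0.47 (SE; adjusted p 5.44e-06). CHAC1, TRIB3, PPP1R15A and CEBPG were higher in Farage by 0.94 to 1.31 on the log2 scale. ATF4 and ASNS, at -0.84 and -0.73, were lower in Farage. The PPP1R15A call was lost without DMSO replicate 3 of SUDHL6 (1.13, adjusted p 0.0533).

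SUDHL4 under DMSO was higher than SUDHL6 for 3 genes, beside 30.1% of all tested genes, and lower for 1, beside 38.5%. TRIB3 was at 55.0 ± 19.4 CPM in SUDHL4 and 10.6 ± 5.50 CPM in SUDHL6 (SD, n = 3 each), a log2 difference of 2.32 (adjusted p 1.01e-06). CEBPG was higher by 0.57 (0.00129) and ATF4 lower by -0.46 (0.000328). The call of DDIT3, higher by 1.10 (0.0224), was lost without DMSO replicate 3 of SUDHL4 (0.46, adjusted p 0.161), without DMSO replicate 2 (0.0529) or 3 (0.085) of SUDHL6, and without both SUDHL6 replicates 3 (0.0632). Without DMSO replicate 3 of SUDHL4, 5 genes were lower in SUDHL4, among them PPP1R15A by -1.25 (0.000246) and CHAC1 by -0.60 (0.041). ASNS and PPP1R15B were lower by -0.39 (0.0165) and -0.26 (0.0399) in that fit. Over all 12769 tested genes, 4914 were lower with all libraries, and 4582 to 5192 with 1 library left out at a time. ATF3 differed by 0.65 with DMSO replicate 3 of SUDHL4 and by -0.12 without it, neither called.

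Against Farage, SUDHL4 was higher for 5 genes under DMSO, beside 31.1% of all tested genes, and lower for 4, beside 36%. ATF3 and PPP1R15A were lower by -2.80 and -1.72 (adjusted p 5.83e-05 and 0.00238), or by -3.58 and -2.50 without DMSO replicate 3 of SUDHL4. PPP1R15B was not called with all libraries (-0.26, adjusted p 0.0549), but was lower by -0.40 (0.00387) without that replicate. CHAC1 was lower by -1.54 (0.000105) and CEBPG by -0.37 (0.0243). The CEBPG call was lost with DESeq2 (0.0531) and edgeR (0.0949), without DMSO replicate 2 (0.063) or 3 (0.0509) of Farage, and without DMSO replicate 1 (0.0889) or 2 (0.128) of SUDHL4. TRIB3, ASNS and ATF4 were higher by 1.15, 0.45 and 0.37. DDIT3 and CEBPB were higher by 1.12 (0.0211) and 0.82 (0.015), and both calls were lost without DMSO replicate 3 of SUDHL4 (0.145 and 0.107). The DDIT3 call was also lost without DMSO replicate 1 of Farage (0.0559). The order of the lines under DMSO was not the same for all genes. By mean CPM, Farage was highest for ATF3, CHAC1, PPP1R15A, PPP1R15B and CEBPG. SUDHL4 was highest for TRIB3, DDIT3 and CEBPB, and SUDHL6 for ATF4 and ASNS. The top line overlapped another for PPP1R15B, DDIT3 and CEBPB. Without DMSO replicate 3, CEBPB in SUDHL4 was at 5.18 CPM, below 5.36 CPM in SUDHL6. For ASNS, the lowest SUDHL6 value was 167.7 CPM and the highest SUDHL4 value 167.6 CPM, a difference between lines that limma did not call (adjusted p 0.0639).

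Genes around these 10 in the pathway were counted in lists, given for the mean of the 3 lines beside 30.1% of all tested genes higher, 53.8% lower and a median of -0.24. These lists were also chosen with earlier results of these data known, and their counts are descriptions. By line, 41.3% of all tested genes were lower in SUDHL6, 46.5% in Farage and 46.2% in SUDHL4, beside the shares that were higher given above. Among 13 eIF2α kinases and their inputs, 4 were higher and 9 lower, with a median of -0.66. By line, 4, 3 and 4 were higher and 7, 8 and 6 lower in SUDHL6, Farage and SUDHL4. EIF2AK3, the kinase PERK of the endoplasmic reticulum, was higher, with a log2 fold change of 1.94 ± 0.11 (SE; adjusted p 4.33e-11). It was at 366 ± 67.8 CPM with the inhibitor and 107 ± 23.7 CPM with DMSO in SUDHL6, and at 197 ± 8.08 and 51.8 ± 4.16 CPM in Farage (SD, n = 3 each). DNAJC3, a co-chaperone known to inhibit the eIF2α kinases, was higher by 1.56. GCN1L1, which encodes an activator of the kinase GCN2, was lower at -0.95, and in each line. IMPACT, which encodes an inhibitor of that kinase, was lower by -1.51 in Farage and -1.79 in SUDHL4, or -1.11 in the mean of the lines. In SUDHL6 it was close to undetected, at 0 CPM with the inhibitor and 0.0257 CPM with DMSO, so the mean includes a line with next to no transcript. The genes of the other 3 kinases, EIF2AK1 (HRI), EIF2AK2 (PKR) and EIF2AK4 (GCN2), chosen for naming after their values were seen, were lower in the mean at -0.69, -0.80 and -0.83. EIF2AK2 passed the test in SUDHL6 (-1.33, adjusted p 0.00125) but not in Farage (-0.45, 0.211) or SUDHL4 (-0.62, 0.087). PPP1CC, a catalytic subunit of protein phosphatase 1, was lower at -0.10 as deposited and had the other sign with median-of-ratios scaling.

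Of 9 genes of eIF2, its exchange factor eIF2B and the related EIF2A, 1 was higher and 7 were lower, with a median of -0.68. EIF2B3 was lowest at -1.68 ± 0.06 (SE; adjusted p 5.01e-13), then EIF2B2 and EIF2B1 at -1.09 and -1.03. EIF2S2, the β subunit of eIF2, was higher by 0.79. In each line 1 gene was higher and 7 were lower. With median-of-ratios scaling, 2 were higher and 6 lower.

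The 37 tested genes, of 40 found, on a list of other ATF4 and CHOP targets held 33 higher and 3 lower, with a median of 0.97. By line, 28, 29 and 28 were higher and 3, 1 and 3 lower in SUDHL6, Farage and SUDHL4. SLC7A11, the cystine transporter, changed most, by 4.27 ± 0.30 (SE; adjusted p 8.72e-10). It was at 262 ± 106 CPM with the inhibitor and 8.98 ± 1.79 CPM with DMSO in SUDHL6 (SD, n = 3 each). CTH, an enzyme of cysteine synthesis, rose by 3.10, VEGFA, an angiogenic growth factor, by 2.71, and KLHL24, a ubiquitin ligase adaptor, by 2.59. The next genes were chosen after their values were seen. SLC3A2, the heavy chain that pairs with SLC7A11, rose by 2.19, and SESN2, which restrains mTORC1, by 2.10. Among genes linked to CHOP and cell death, TNFRSF10B, a death receptor, and BCL2L11, which encodes BIM, rose by 1.32 and 1.40. BBC3, which encodes PUMA, rose by 2.08 in SUDHL6 and 2.35 in SUDHL4, but was at 0.27 in Farage (adjusted p 0.461), where it had 10.6 CPM with the inhibitor and 8.66 CPM with DMSO. Its change in the mean was 1.57. EIF4EBP1, a repressor of cap-dependent translation, and CBS, of cysteine synthesis, fell by 0.83 and 0.57 in the mean. CBS passed the test in SUDHL4 (-1.29) but not in SUDHL6 (-0.12, adjusted p 0.617) or Farage (-0.28, 0.232). SHMT2, of serine and glycine metabolism, fell by 0.18 in the mean as deposited, passing in SUDHL6 alone among the lines, and had the other sign with median-of-ratios scaling. The 1 gene not called, DDIT4, an mTORC1 inhibitor, was at 0.24 with an adjusted p of 0.0768. Part of this list overlaps targets of other stress factors such as NRF2 and p53.

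Of 33 tested bZIP partners and relatives, of 36 found, 23 were higher and 4 lower, with a median of 0.73. By line, 21, 20 and 18 were higher and 5, 5 and 6 lower. The AP-1 genes FOS and FOSB rose by 3.38 and 3.18, and the small MAF gene MAFF by 2.80. BACH1, a haem-sensing repressor, rose by 2.66. ATF5, a relative of ATF4 named after its values were seen, rose by 0.87 in the mean, with 0.99 in SUDHL6, -0.24 in Farage and 1.87 in SUDHL4.

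Of 21 genes of the IRE1 and ATF6 arms of the unfolded protein response, 8 were higher and 7 lower, with a median of -0.06. By line, 8, 8 and 9 were higher and 9, 7 and 8 lower. ERN1, which encodes IRE1, rose by 2.93 ± 0.21 (SE; adjusted p 1.12e-09), SEL1L, of the degradation machinery of the endoplasmic reticulum, by 1.43, and DNAJB9, a co-chaperone there, by 1.37. The folding factor SDF2L1 fell by 2.06. XBP1, the factor whose messenger IRE1 splices, rose by 1.33, and HSPA5, the chaperone BiP, was at 0.19 with an adjusted p of 0.108; both were chosen after their values were seen. With median-of-ratios scaling, 11 were higher and 7 lower. All 5 tested genes of ATF4 turnover, of 7 found, were higher, with a median of 0.73; EGLN1, an oxygen sensor, changed most, by 1.13. FBXW11, a subunit of the ligase that marks ATF4 for breakdown, rose by 0.98, and the ubiquitin ligase genes SIAH1 and SIAH2 by 0.73 and 0.37, SIAH2 passing in SUDHL4 alone among the lines. By line, 3, 4 and 4 of these were higher and 0 lower.

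**Figure D5:**
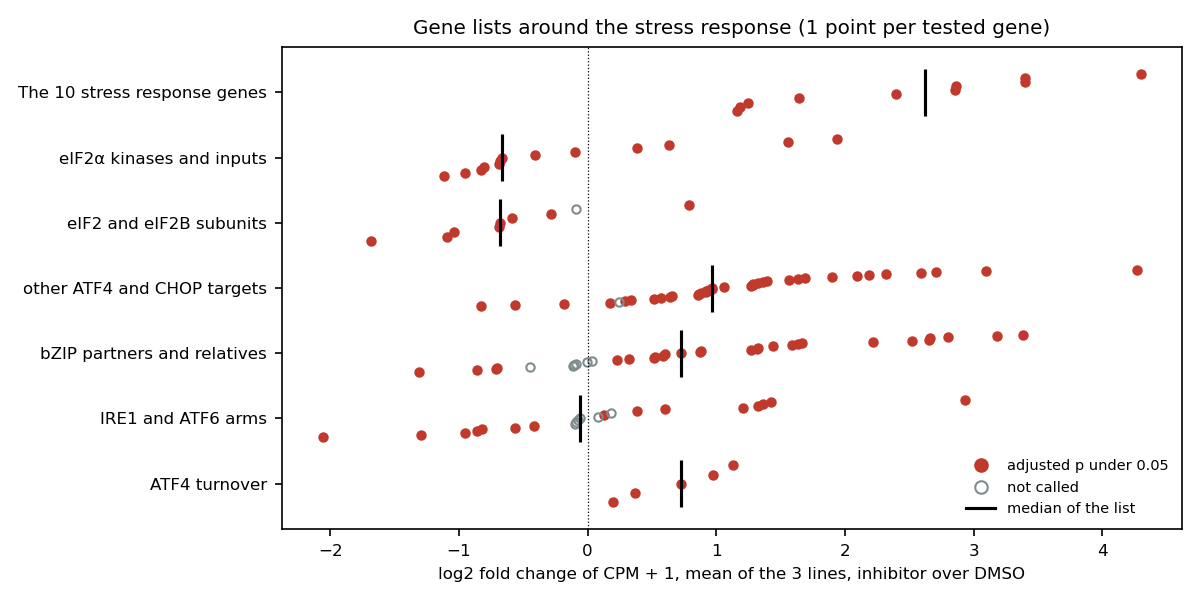
Log2 fold change of CPM + 1 in the mean of the 3 lines, inhibitor over DMSO, of each tested gene of the lists (points; red where called, open where not), with the median of each list as a black line. The medians run between 2.63 for the 10 stress response genes and -0.68 for the eIF2 and eIF2B subunits.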

How the data were processed

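The members and lists were chosen with earlier results of these data known. The deposited values are CPM per gene symbol, for each of 18 libraries. The submitters' processing notes name the aligner STAR and the build hg19; per the labels' protocols, a TruSeq RNA kit was used, and 1 sample's description names Rsubread. Versions and strand setting: not given in the sources used here. From the CPM, limma 3.58.1 (R 4.3.3) with an intensity trend was fitted to log2(CPM + 1) with a mean for each of 6 groups (12 residual degrees of freedom), on 12769 genes at 1 CPM or more in at least 3 libraries; tests were two-sided. Whole reads were recovered from the deposited CPM, with 100% of values whole within 0.01 reads, and tested with edgeR 4.0.16 and DESeq2 1.42.0 as alternatives. The other alternatives were the pseudocount, filter, scaling, compared groups, left-out libraries and a block by replicate number. Same-numbered inhibitor and DMSO libraries of SUDHL6 deviated together (r of 0.43, 0.49 and 0.63 over genes). The main fit used no pairs, and the block alternative paired same-numbered libraries in all 3 lines. By rule, the 10 genes were named in every group, with up to 4 called genes per list by size of change and the 3 genes most like ATF4, DDIT3 and ATF3; others are marked. The fit was tested on simulated counts with the same spread setting for every gene, and only for the mean of the 3 lines. Response differences between lines, a deviating library and paired replicates were not simulated, so that test does not cover them. Counting error is small at these depths, except for genes near 1 CPM.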

Additional observations from a re-analysis of the deposited data

Results flagged for a closer look

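The response to the inhibitor differed between lines for some of the 10 genes, by the limma test of the difference itself. Such differences were common: the F-test over the 3 lines called 5 of the 10 genes, beside 55.9% of all tested genes, and each pair called 12.5% to 17.7% of all tested genes higher and 19.7% to 22.5% lower. Values are log2 response differences. In Farage against SUDHL6, ATF4 responded more (0.62), while CHAC1 (-1.26), TRIB3 (-1.37), CEBPG (-0.70) and ASNS (-0.49) responded less; the ASNS call was lost in 19 of 26 alternatives, and the F-test did not call this gene (adjusted p 0.0797). In SUDHL4 against SUDHL6, TRIB3 responded less (-1.12), a call lost in 10 of 26 alternatives. Among these were the replicate block (adjusted p 0.0559), median-of-ratios scaling (0.0721), no filter (0.0531) and leaving out DMSO replicate 3 of SUDHL4 (0.0847). In SUDHL4 against Farage, PPP1R15A (1.86) and CEBPG (0.99) responded more and ATF4 less (-0.47); the PPP1R15A call was lost in 5 of 26 alternatives and that of ATF4 in 1. The pairs share libraries, and the DMSO level of these genes also differed by line. No explanation of these differences was tested.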

How the results depend on the processing

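All 10 genes stayed higher with the inhibitor in each line and in the mean under every alternative run, with an adjusted p of at most 0.00419 for any of them in a line; DESeq2 gave no adjusted p for ATF3. No value changed direction past its threshold. Line differences were less stable. Members with a lower response in SUDHL4 than SUDHL6 numbered 1, and 0 with no filter, 0 with median-of-ratios scaling and 2 without both SUDHL6 replicates 3. Members lower under DMSO in SUDHL4 than SUDHL6 numbered 1, and 2 with only the compared groups and 2 without both SUDHL6 replicates 3. With edgeR, 1 member had a higher and 0 a lower response in SUDHL4 than Farage (2 and 1 with limma), and the F-test called 3 (5 with limma). With DESeq2, 1 had a higher response in SUDHL4 than Farage, and 2 were lower under DMSO there (4 with limma). Leaving out 1 library at a time gave 0 to 3 members with a lower and 0 to 2 with a higher response in SUDHL4 than SUDHL6, 1 to 5 with a higher response in SUDHL4 than Farage, 3 to 8 by the F-test, 1 to 5 lower under DMSO in SUDHL4 than SUDHL6, and 3 to 5 higher under DMSO in SUDHL4 than Farage. The 8 by the F-test, the 5 with a higher response than Farage, the 5 lower under DMSO and the lowest count of 3 higher under DMSO came without DMSO replicate 3 of SUDHL4, and the 3 with a lower response without inhibitor replicate 3 of SUDHL6. Counts over all 12769 tested genes moved too. Leaving out 1 library at a time gave 6462 to 8049 by the F-test and 1910 to 2648 with a higher response in SUDHL4 than Farage. For SUDHL4 against SUDHL6, it gave 2385 to 3566 with a lower and 1306 to 1919 with a higher response. It gave 4582 to 5192 lower under DMSO in SUDHL4 than SUDHL6, and 3580 to 4196 higher under DMSO in SUDHL4 than Farage. For the line differences under the other alternatives, counts over all tested genes are not given here. The member counts there cannot be read as particular to the 10 genes.

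Genes of the whole table at least 2-fold higher numbered 957 in SUDHL4 and 776 in the mean, and 1528 and 1209 with median-of-ratios scaling. In SUDHL6, Farage, SUDHL4 and the mean they numbered 1808, 1802, 2125 and 1759 with edgeR and 1760, 1839, 2092 and 1788 with DESeq2, against 909 in SUDHL6 and 942 in Farage with limma; these tools change scaling, pseudocount and model at once. With a pseudocount of 0.25 alone they numbered 1150, 1173, 1196 and 1009.

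With the replicate number as a block, which leaves 6 residual degrees of freedom, the calls of TRIB3 and CHAC1 between SUDHL4 and SUDHL6 and of CEBPB between Farage and SUDHL6 changed as given above, and no other call did. Same-numbered libraries of Farage (r of 0.17, -0.13 and -0.19) and SUDHL4 (-0.05, 0.03 and -0.07) did not deviate together, though the block covered these lines too. No paired analysis was possible for DMSO levels between lines, because the block terms belong to 1 line each. Depth limits ATF3 most, whose SUDHL6 DMSO values rest on 10 to 25 reads.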
